A study of Rattus norvegicus with 18 samples.

Results

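The family of microRNAs (miRNAs) made up of miR-148a, miR-148b and miR-152 was described in small RNA from rat cervical dorsal root ganglia (DRG), which hold the cell bodies of the sensory neurons with their satellite and Schwann cells. Its members were taken by name and are the 3p and 5p arms of 3 precursors: rno-miR-148a-3p, rno-miR-148a-5p, rno-miR-148b-3p, rno-miR-148b-5p, rno-miR-152-3p and rno-miR-152-5p. They are 6 of the 753 mature miRNAs listed, and all 6 were among the 373 that passed the filter of the tests (over 10 counts in 6 or more of the 18 libraries). The family was chosen by measured values of these same libraries, because miR-148a-3p stood out after injury and returned with neurotrophin-3, and miR-152-5p was lower in both injured groups. For this reason the levels and fold changes of the members between groups are given as a description and cannot serve as support. Counts of members past a threshold are printed only beside the share of all tested miRNAs, and no p-value of a member between groups is given.

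Adult Lister hooded rats were studied in 3 groups of 6, and every rat gave 1 library from the ganglia of cervical levels 6 to 8, combined on the treated side within the rat. Naive rats had no operation and no vector. In the other groups both corticospinal tracts were cut in the medullary pyramids (bilateral pyramidotomy, bPYX). A day later an AAV1 vector was injected into the forelimb flexor muscles of 1 side. In bPYX+GFP rats the vector carried green fluorescent protein, and in bPYX+NT3 rats it carried human neurotrophin-3, both under the CMV promoter, which is active in many cell types. The ganglia were taken 10 weeks after injury. Injury, vector and surgery came together, so against naive rats they cannot be told apart. The ganglia were homogenized whole, so fewer cells of a type and less RNA per cell cannot be told apart either.

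A miRNA precursor folds into a hairpin, and each side of the stem can give a mature strand, the 5p arm or the 3p arm. The strand kept by an Argonaute protein, the guide, pairs with messenger RNAs mainly through bases 2 to 8, its seed, and lowers their translation and stability. The other strand, the passenger, is mostly degraded. In this family the 3p arms are the guides. They share a seed and are best known as repressors of Dnmt1, the enzyme that copies DNA methylation marks after replication.

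The mature sequences below, from RefSeq on build GRCr8, show the shared seed and the few bases by which the guides differ. The deposited counts were made on an older build, Rnor_5.0. Of the 6 members 5 had an entry, and miR-148b-5p had none. Capitals mark the seed.
rno-miR-148a-3p: uCAGUGCAcuacagaacuuug
rno-miR-148b-3p: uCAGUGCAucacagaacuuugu
rno-miR-152-3p: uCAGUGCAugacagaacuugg
rno-miR-148a-5p: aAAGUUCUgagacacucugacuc
rno-miR-152-5p: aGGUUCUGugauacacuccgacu

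The 3 guides fall into 1 seed group, CAGUGCA, and no other miRNA had this seed among the 688 of 753 listed miRNAs with a sequence. The 5p arms had the seeds AAGUUCU and GGUUCUG, which no other listed miRNA with a sequence shared. Over the first 21 bases, counted from the 5′ end, miR-148a-3p and miR-148b-3p differed by C9U and U10C and were 90.5% identical. miR-148a-3p and miR-152-3p differed by C9U, U10G and U20G (85.7% identical). miR-148b-3p and miR-152-3p differed by C10G and U20G (90.5% identical). The guides are thus told apart by 2 or 3 bases, and a read with an error at these positions can be counted for the wrong guide or for none. How many reads this touched was not tested.

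The 3 precursors lie on 3 chromosomes of GRCr8. miR-148a-3p lies at chr4:81664447-81664467 and miR-148a-5p at chr4:81664483-81664505, both on the minus strand and inside no other annotated gene. miR-148b-3p lies at chr7:136299930-136299951 on the plus strand, within the span of Copz1, which encodes a subunit of the COPI vesicle coat. miR-152-3p lies at chr10:82329435-82329455 and miR-152-5p at chr10:82329397-82329419, on the plus strand within the span of Copz2, the paralog of Copz1. The hairpin of Mir148a (97 nt) is printed because it shows how both arms, in capitals, face each other in 1 precursor.
Mir148a hairpin: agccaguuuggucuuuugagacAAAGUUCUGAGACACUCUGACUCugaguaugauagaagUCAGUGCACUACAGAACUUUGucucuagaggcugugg

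Counts given to miRNAs were 3.88 to 6.92 M per library. bPYX+GFP replicate 3 was the deepest library at 6.92 M, and the other libraries of its group held 4.37 to 4.66 M. It also stood apart in the levels of this family, so results that rest on it are given with and without it. Of its reads 35.8% were counted for a miRNA, against 32.6 to 36.4% in the others of its group. Ganglion identity was checked with miRNAs of sensory neurons: miR-96-5p and miR-182 summed to 23643 to 33104 counts per M miRNA counts (CPM, where M is the SI prefix mega) over the 18 libraries, while miR-183-5p, of the same cluster, was listed at 0 in every library. Markers of myelinating glia, miR-338-3p and miR-338-5p, were also listed at 0 in all libraries. A miRNA at 0 in every library may have gone uncounted, so these zeros are not read as absence, and glia could not be checked with these markers.

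Levels are CPM after TMM scaling. Mature miRNAs are of nearly equal length, so no length correction was made. Ligation of adapters favours some sequences, so the order of levels between miRNAs holds for reads and not with certainty for molecules. miR-148a-3p was by far the most abundant member at 6242 ± 2317 CPM (SD, n = 18) and ranked 24 of the 373 tested miRNAs. miR-152-3p was next at 949.7 ± 176 CPM (rank 67), followed by miR-148b-3p at 306 ± 159 CPM (rank 113). The passenger arms were lower. miR-148a-5p was at 139 ± 23.5 CPM (rank 146), miR-152-5p at 36.4 ± 7.14 CPM (rank 224) and miR-148b-5p at 26.2 ± 4.50 CPM (rank 244).

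The order was nearly the same in every rat. miR-148a-3p exceeded miR-152-3p in 18 of 18 libraries, by a ratio of 4.72 to 9.87, and miR-152-3p exceeded miR-148b-3p in 18 of 18, by 1.71 to 4.90. miR-148b-3p exceeded miR-148a-5p in 18 of 18 libraries, by a ratio of 1.14 to 8.03 with a median of 1.96. miR-148a-5p exceeded miR-152-5p in 18 of 18 libraries. For the last neighbours miR-152-5p was higher than miR-148b-5p in 17 of 18. Over all rats the ranges overlapped for this pair, for miR-152-3p and miR-148b-3p, and for miR-148b-3p and miR-148a-5p. All members had counts in all libraries. The smallest count was 84, for miR-148b-5p in bPYX+NT3 replicate 2, and the largest was 91674, for miR-148a-3p in bPYX+GFP replicate 3.

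The guide of miR-148a was higher in bPYX+GFP than in naive ganglia, and in bPYX+NT3 it was again near the naive level. In naive rats miR-148a-3p ranged from 4268 to 6061 CPM with a median of 5033 CPM. The bPYX+GFP rats ranged from 5929 to 14546 CPM with a median of 7009 CPM. The bPYX+NT3 rats ranged from 4372 to 6387 CPM with a median of 5365 CPM. The highest value was that of bPYX+GFP replicate 3, and the next in the group was 8267 CPM. Of the 6 bPYX+GFP rats 5 lay above every naive rat, the exception being replicate 2 at 5929 CPM, and the groups overlapped. Of the 6 bPYX+NT3 rats 5 lay below every bPYX+GFP rat. Naive and bPYX+NT3 ranges overlapped almost in full.

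The log2 fold change of miR-148a-3p was 0.67 ± 0.19 (SE) in bPYX+GFP against naive, -0.58 ± 0.17 in bPYX+NT3 against bPYX+GFP and 0.07 ± 0.11 in bPYX+NT3 against naive. The first 2 of these share the bPYX+GFP libraries, so a high bPYX+GFP group moves both. Without bPYX+GFP replicate 3 the values were smaller, at 0.44 ± 0.11 and -0.36 ± 0.10, with the same signs. The bPYX+GFP mean was 8189 ± 3214 CPM (SD, n = 6) with replicate 3 and 6918 ± 890.3 CPM (SD, n = 5) without it. The naive mean was 5135 ± 764 CPM and the bPYX+NT3 mean 5401 ± 681 CPM (SD, n = 6 each).

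**Figure D1:**
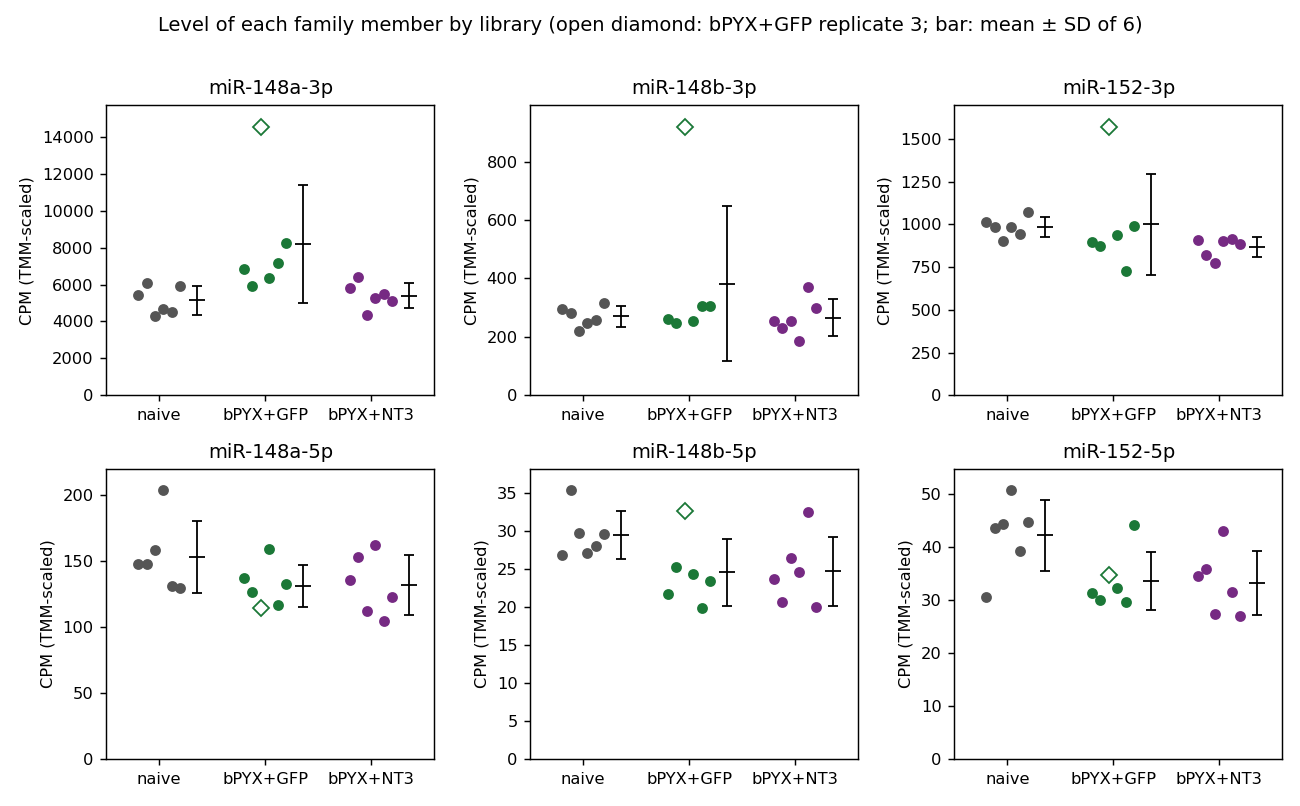
Level of the 6 members in the 18 libraries, in TMM-scaled CPM on axes that start at 0, with 1 point per rat, an open diamond for bPYX+GFP replicate 3 and a bar for the mean ± SD of 6. miR-148a-3p of bPYX+GFP rats lies mostly above the naive range of 4268 to 6061 CPM, and all 3 guides are highest in bPYX+GFP replicate 3.

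The guide of miR-148b was high in a single bPYX+GFP rat. In naive rats miR-148b-3p ranged from 219.8 to 316 CPM with a median of 271 CPM. The bPYX+GFP rats ranged from 246 to 919.8 CPM with a median of 283 CPM. The bPYX+NT3 rats ranged from 184 to 372 CPM with a median of 256 CPM. bPYX+GFP replicate 3 held the 919.8 CPM, and the next bPYX+GFP rat was at 306 CPM, inside the naive range. The groups overlapped in all comparisons.

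The log2 fold change of miR-148b-3p was 0.50 ± 0.28 (SE) in bPYX+GFP against naive and -0.50 ± 0.29 in bPYX+NT3 against bPYX+GFP. Without bPYX+GFP replicate 3 these fell to 0.03 ± 0.11 and -0.05 ± 0.14, so 1 library decided both. Against naive, bPYX+NT3 differed by -0.02 ± 0.14. The spread within the group was widest in bPYX+GFP (SD of 265 CPM), and without replicate 3 it was 28.5 CPM, close to the 34.8 CPM of naive rats.

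The guide of miR-152 was slightly lower in the injured rats once the same rat was set aside. In naive rats miR-152-3p ranged from 903.5 to 1073 CPM with a median of 983 CPM, the tightest group of all members (coefficient of variation 5.86%). In bPYX+GFP rats it ranged from 727 to 1571 CPM with a median of 916 CPM, and the highest value was again that of replicate 3, with the next at 990.5 CPM. In bPYX+NT3 rats it ranged from 772 to 912 CPM with a median of 896 CPM. All 6 bPYX+NT3 rats lay under the naive mean, and 5 of 6 naive rats lay above every bPYX+NT3 rat.

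The log2 fold change of miR-152-3p was 0.02 ± 0.14 (SE) in bPYX+GFP against naive and -0.15 ± 0.07 without bPYX+GFP replicate 3, so its sign depended on this library. In bPYX+NT3 against naive it was -0.18 ± 0.07. Between the injured groups it was -0.19 ± 0.13, and -0.03 ± 0.08 without bPYX+GFP replicate 3.

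The 3 passenger arms had lower means in both injured groups than in naive rats. miR-152-5p ranged from 30.7 to 50.8 CPM in naive rats (median 44.0), from 29.7 to 44.2 CPM in bPYX+GFP rats (median 31.8) and from 26.9 to 43.0 CPM in bPYX+NT3 rats (median 33.1). Its low naive value was that of replicate 1, and the other naive rats lay at 39.3 CPM or more. In each injured group 5 of 6 rats lay below those 5 naive rats, and 2 of 6 lay below every naive rat. Its log2 fold change was -0.33 ± 0.13 (SE) in bPYX+GFP against naive and -0.35 ± 0.14 in bPYX+NT3 against naive. Without naive replicate 1 these were -0.40 ± 0.12 and -0.43 ± 0.13, and without naive replicate 4 they were -0.27 ± 0.13 and -0.29 ± 0.14. Between the injured groups it was -0.01 ± 0.13.

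miR-148b-5p ranged from 26.9 to 35.4 CPM in naive rats (median 28.8), from 19.9 to 32.7 CPM in bPYX+GFP rats (median 23.9) and from 19.99 to 32.6 CPM in bPYX+NT3 rats (median 24.2). In each injured group 5 of 6 rats lay below every naive rat. The exceptions were bPYX+GFP replicate 3 and bPYX+NT3 replicate 5. Its log2 fold change was -0.26 ± 0.12 (SE) in bPYX+GFP against naive, -0.25 ± 0.13 in bPYX+NT3 against naive and 0.02 ± 0.14 between the injured groups. Without bPYX+GFP replicate 3 the first of these was -0.35 ± 0.10, and without bPYX+NT3 replicate 5 the second was -0.35 ± 0.12. Without naive replicate 2, the highest naive rat, the same 2 were smaller, at -0.20 ± 0.12 and -0.19 ± 0.13.

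miR-148a-5p ranged from 129.6 to 203 CPM in naive rats (median 147), from 115 to 159 CPM in bPYX+GFP rats (median 129.6) and from 105 to 162 CPM in bPYX+NT3 rats (median 129). Here the groups overlapped widely, and bPYX+GFP replicate 3 was the lowest of its group and not the highest. The log2 fold change was -0.22 ± 0.12 (SE) in bPYX+GFP against naive and -0.22 ± 0.13 in bPYX+NT3 against naive. Much of both came from naive replicate 4 at 203 CPM, and without it they were -0.12 ± 0.10 and -0.12 ± 0.12. Between the injured groups it was 0.02 ± 0.12.

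**Figure D2:**
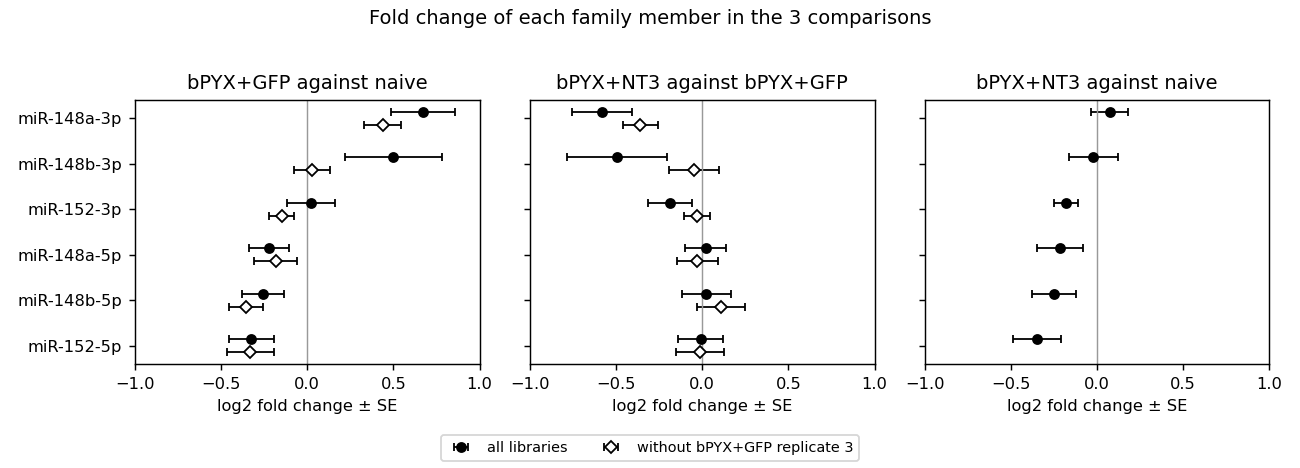
Log2 fold change ± SE of the 6 members in the 3 comparisons, from all libraries (filled circles) and without bPYX+GFP replicate 3 (open diamonds). miR-148a-3p stays at 0.44 and -0.36 without this library, while miR-148b-3p moves from 0.50 to 0.03.

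In bPYX+GFP against naive no member had an adjusted p under 0.05 with the edgeR quasi-likelihood test, a call that 9 of 373 miRNAs (2.41%) had. With the DESeq2 Wald test miR-148a-3p was called, among 23 of 373 miRNAs (6.17%), and so it was in the edgeR fit without bPYX+GFP replicate 3, among 8 (2.14%). At p under 0.05 without adjustment, with all 12 libraries kept, 2 of 6 members passed against 21.2% of all tested miRNAs. They were miR-148a-3p on the higher side (10.7% of all) and miR-152-5p on the lower side (10.5% of all). No member had groups that did not overlap in CPM, as 4.02% of all tested miRNAs did.

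In bPYX+NT3 against bPYX+GFP no member passed the adjusted threshold, and neither did any other miRNA (0%) with edgeR or with DESeq2. At an unadjusted p under 0.05, 1 of 6 members passed, miR-148a-3p on the lower side, against 8.58% of all tested miRNAs (3.49% lower and 5.09% higher). No miRNA had groups that did not overlap (0%). In bPYX+NT3 against naive no member passed the adjusted threshold with edgeR (0% of all) or with DESeq2 (0.268% of all). At an unadjusted p under 0.05, 2 of 6 members passed, miR-152-3p and miR-152-5p, both lower, against 13.7% of all tested miRNAs (6.43% lower and 7.24% higher). No member had groups that did not overlap, as 1.34% of all did. Because these values chose the family, nothing is read from the counts.

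The median log2 fold change of the 6 members was -0.10 in bPYX+GFP against naive, where that of all tested miRNAs was 0.00, and it was -0.17 without bPYX+GFP replicate 3 (0.00 for all). In bPYX+NT3 against naive it was -0.20, and that of all tested miRNAs was -0.01. Between the injured groups it was -0.10, and that of all tested miRNAs was -0.00. Without bPYX+GFP replicate 3 it was -0.03, with -0.01 for all. In bPYX+GFP against naive the guides of miR-148a, miR-148b and miR-152 thus had the opposite sign to the family's median. Without bPYX+GFP replicate 3 this held for those of miR-148a and miR-148b, and miR-152-3p was at -0.15.

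Because the guides share a seed, their summed level is a measure of the family's guide strands. The sum of miR-148a-3p, miR-148b-3p and miR-152-3p ranged from 5391 to 7325 CPM in naive rats (median 6304), from 7048 to 17036 CPM in bPYX+GFP rats (median 8104) and from 5400 to 7436 CPM in bPYX+NT3 rats (median 6551). Of the 6 bPYX+GFP rats 5 lay above every naive rat. The means were 6389 ± 840.2, 9570 ± 3754 and 6534 ± 699 CPM (SD, n = 6 each), and that of bPYX+GFP was 8076 ± 942 CPM without replicate 3 (SD, n = 5). This sum mostly follows miR-148a-3p.

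In the make-up of the sum bPYX+GFP and naive rats did not overlap, whereas they overlapped in every member's level. How often ratios of other miRNAs separate these groups was not computed, so no background share stands beside this. Since it is a ratio within a library, it does not depend on scaling. miR-148a-3p made up 78.9 to 82.7% of the summed guides in naive rats (mean 80.2 ± 1.50%, SD, n = 6). In bPYX+GFP rats it made up 84.1 to 87.4% (85.5 ± 1.27%), so every bPYX+GFP rat lay above every naive rat. bPYX+GFP replicate 3 was at 85.4%, in the middle of its group, although its levels were the highest. In bPYX+NT3 rats the share was 81.0 to 85.9% (82.5 ± 1.94%), between the other groups and overlapping both.

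miR-152-3p made up the mirror image. Its share was 13.4 to 16.8% in naive rats (15.5 ± 1.37%, SD, n = 6) and 8.86 to 12.4% in bPYX+GFP rats (10.7 ± 1.53%), again without overlap, and 11.0 to 14.3% in bPYX+NT3 rats (13.4 ± 1.26%). Of the 6 bPYX+NT3 rats 5 lay above every bPYX+GFP rat. The share of miR-148b-3p was small, with means of 4.24 ± 0.25% (naive), 3.74 ± 0.84% (bPYX+GFP) and 4.11 ± 1.04% (bPYX+NT3). In bPYX+GFP 5 rats had 3.18 to 3.72% of miR-148b-3p, below every naive rat, and replicate 3 had 5.40%, above every naive rat. The shares of miR-148a-3p and miR-152-3p are nearly complements, so their lack of overlap is 1 result and not 2. The shares rest on the same libraries as the fold changes that chose the family, among them that of miR-148a-3p, and were not tested.

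**Figure D3:**
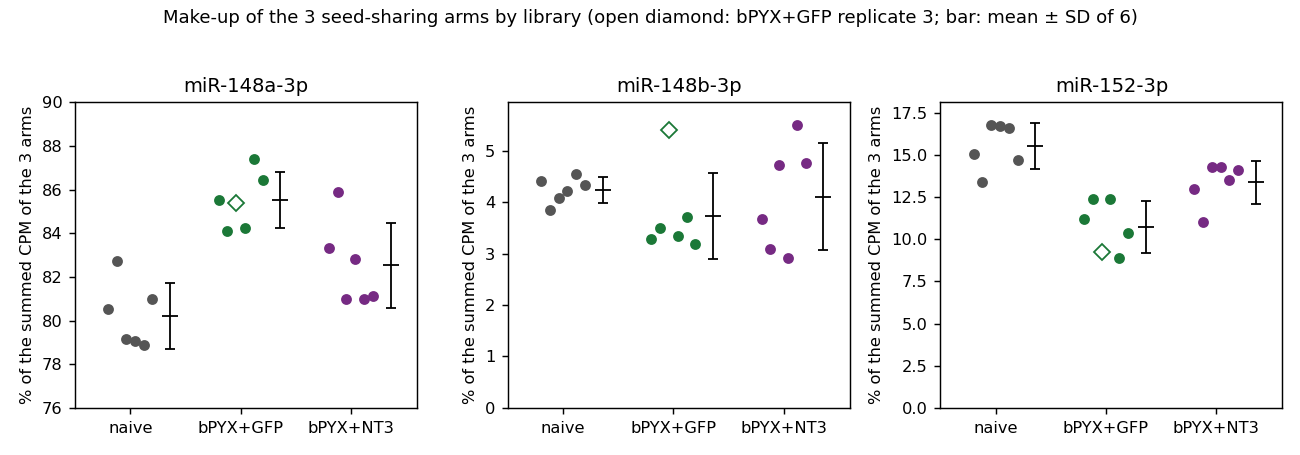
Share of each guide in the summed CPM of the 3 seed-sharing 3p arms, in % per rat, with an open diamond for bPYX+GFP replicate 3 and a bar for the mean ± SD of 6; the axis of miR-148a-3p does not start at 0. Naive and bPYX+GFP rats do not overlap for miR-148a-3p (82.7% and less against 84.1% and more) or for miR-152-3p (13.4% and more against 12.4% and less). How often ratios of other miRNAs do so was not computed.

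The ratios of guide to passenger rest on the same libraries as the fold changes that chose the family and were not tested. In miR-148a the mean ratio was higher in bPYX+GFP than in naive rats, with ranges that overlapped. Its 3p arm had 22.9 to 45.6 counts per count of the 5p arm in naive rats (mean 34.6 ± 8.52, SD, n = 6), 40.2 to 127 in bPYX+GFP rats (64.6 ± 31.7) and 32.4 to 52.4 in bPYX+NT3 rats (41.6 ± 6.47). Of the 6 bPYX+GFP rats 5 lay above every naive rat. Without bPYX+GFP replicate 3 the mean was 52.2 ± 9.60 (n = 5). Both arms come from 1 hairpin, and between naive and bPYX+GFP the guide was higher and the passenger lower in mean level.

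For miR-148b the mean ratio of naive rats was 9.25 ± 1.44, that of bPYX+GFP rats 14.8 ± 6.84 and that of bPYX+NT3 rats 10.9 ± 2.46 (SD, n = 6 each), and 12.1 ± 2.22 in bPYX+GFP without replicate 3. Of the bPYX+GFP rats 4 of 6 lay above every naive rat. For miR-152 it was 23.9 ± 4.85, 29.8 ± 8.03 and 26.7 ± 4.34, with 26.7 ± 3.09 in bPYX+GFP without replicate 3. Here the groups overlapped, and 1 bPYX+GFP rat, replicate 3, lay above every naive rat. In all 3 precursors the mean ratio was highest in bPYX+GFP and lowest in naive rats, although for miR-152 the bPYX+GFP mean without replicate 3 was the same as that of bPYX+NT3 to 3 digits.

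**Figure D4:**
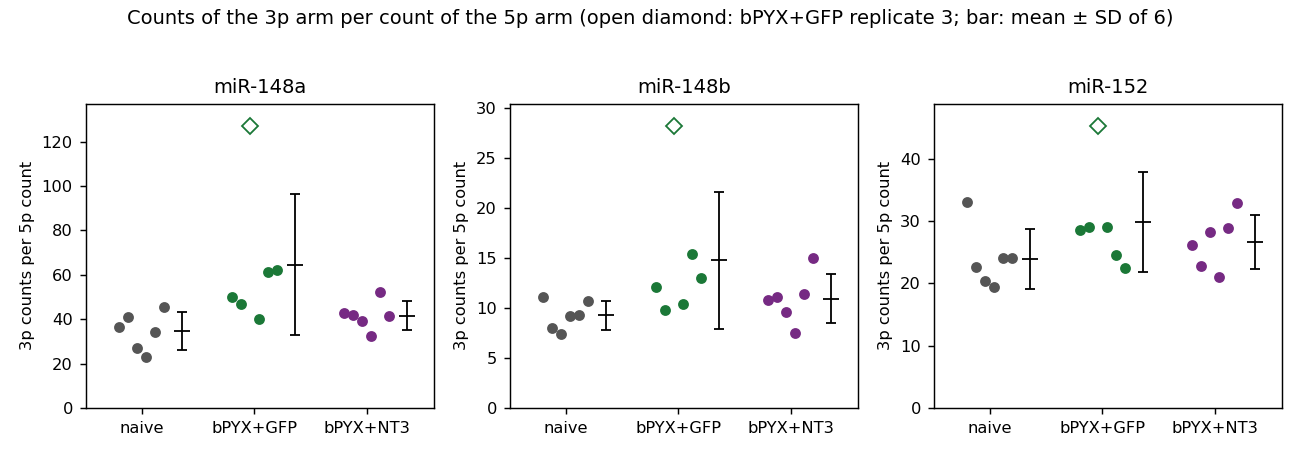
Counts of the 3p arm per count of the 5p arm for each precursor, 1 point per rat, with an open diamond for bPYX+GFP replicate 3 and a bar for the mean ± SD of 6. The ratio of miR-148a lies at 22.9 to 45.6 in naive and at 40.2 to 127 in bPYX+GFP rats, and bPYX+GFP replicate 3 is the highest of all rats in each precursor.

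bPYX+GFP replicate 3 was high in all 3 guides at once. Its level was 2.10 times the mean of the other bPYX+GFP rats for miR-148a-3p, 3.35 times for miR-148b-3p and 1.78 times for miR-152-3p. The guides ranked 8, 3 and 11 among the 373 tested miRNAs by this ratio. Among the passengers the ratio was 0.85 for miR-148a-5p (rank 293), 1.42 for miR-148b-5p (rank 25) and 1.04 for miR-152-5p (rank 157). Thus miR-148b-5p was also at its highest of the group in this rat, at 32.7 CPM with the next at 25.3 CPM. miR-148a-3p took 1.32% of the miRNA counts of this library (95% Wilson interval 1.32 to 1.33%, counting error only).

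By Dixon's criterion, which compares the gap to the nearest rat with the range of the group, 15 of 373 miRNAs (4.02%) stood apart on the high side in this library, and 3 of the 15 were the family's guides. In the other libraries 0 to 9 miRNAs stood apart on the high side. Chosen after their values were seen, the others with the highest ratios were miR-224-5p (204 CPM against a mean of 59.3 CPM in the other bPYX+GFP rats), miR-184 (29.0 against 8.50 CPM) and miR-329-5p (1433 against 513 CPM). The list also held let-7i-5p, at 49995 against 36626 CPM. The library was also the deepest, at 6.92 M counts. The summed level of the skeletal muscle markers tested (miR-133b-3p and miR-206-3p) was highest of the 18 libraries in this rat at 335 CPM, with ranges of 99.0 to 179 CPM (naive), 71.5 to 335 CPM (bPYX+GFP) and 84.5 to 266 CPM (bPYX+NT3). Of the sum miR-206-3p held 297 CPM in this rat, while its miR-133b-3p, at 38.1 CPM, was inside its group's range. The summed smooth muscle markers of this rat, at 59405 CPM, were also the highest of its group (rank 3 of 18), and its summed red blood cell markers, at 205 CPM, were the lowest (rank 17 of 18; group range 205 to 692 CPM). The defining muscle markers miR-1-3p and miR-133a-3p were listed at 0 in all libraries, which may again mean that they went uncounted and gives no measure of muscle RNA. miR-1b, which was not on the list of markers, was at 8959 CPM in this rat, inside its group's range of 8722 to 11011 CPM. The part of depth or of these cell types in the family's values was not tested.

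Differences between group means, by which the family was chosen, do not enter correlations within a group, so relations between members were tested there. Comparisons between groups also weigh the spread within them, so the choice was not fully independent of that spread. The 18 relations were the 3 pairs of guides and the 3 pairs of arms from 1 precursor in each group of 6 rats, on log2 (CPM + 1), with two-sided exact permutation over 720 pairings. None had a Benjamini-Hochberg adjusted p under 0.05 by Pearson's r or Spearman's rho, and 3 had an unadjusted p under 0.05 by Pearson's r and 2 by Spearman's rho. The smallest p that 6 pairs allow is 0.00139 for r, which alone among 18 adjusts to 0.025, and 0.00278 for rho, which adjusts to 0.05, so by rho a single relation could not pass.

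The guides of miR-148a and miR-148b had a positive correlation in naive rats that did not pass adjustment (r = 0.87, exact permutation p = 0.0306, adjusted p = 0.183; rho = 0.77, p = 0.103, adjusted p = 0.463; n = 6). Without the 2 rats farthest from the median of miR-148a-3p r was 0.93. Among bPYX+GFP rats r was 0.98 (exact permutation p = 0.00278, adjusted p = 0.05; rho = 0.94, p = 0.0167, adjusted p = 0.15). Here r was 0.83 without the 2 farthest rats and 0.89 without replicate 3 alone. In bPYX+NT3 rats r was -0.07 (exact permutation p = 0.901, adjusted p = 0.901; rho = -0.09, p = 0.919, adjusted p = 0.919), and 0.11 without the 2 farthest rats. Whether the relation differed between groups was not tested.

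The correlation between the guides of miR-148b and miR-152 was likewise positive in naive rats without passing adjustment (r = 0.92, exact permutation p = 0.0153, adjusted p = 0.138; rho = 0.83, p = 0.0583, adjusted p = 0.35; n = 6), and r was 0.63 without the 2 farthest rats. Among bPYX+GFP rats r was 0.88 (exact permutation p = 0.108, adjusted p = 0.325; rho = 0.37, p = 0.497, adjusted p = 0.814), but it rested on replicate 3 and was -0.28 without it and -0.36 without the 2 farthest rats. In bPYX+NT3 rats r was 0.19 (exact permutation p = 0.707, adjusted p = 0.848; rho = 0.49, p = 0.356, adjusted p = 0.8), and 0.47 without the 2 farthest rats.

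For miR-148a and miR-152 the guides gave r = 0.79 among naive rats (exact permutation p = 0.0514, adjusted p = 0.231), 0.88 among bPYX+GFP rats (p = 0.0694, adjusted p = 0.25) and 0.37 among bPYX+NT3 rats (p = 0.444, adjusted p = 0.656). By Spearman's rho these were 0.66, 0.60 and 0.37 (exact permutation p = 0.175, 0.242 and 0.497, adjusted p = 0.63, 0.725 and 0.814). Without the 2 farthest rats r was 0.91, 0.19 and 0.64. The bPYX+GFP value was 0.17 without replicate 3 alone, and the bPYX+NT3 value ran from -0.73 to 0.92 when each rat was left out.

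For the arms of 1 hairpin Pearson's r had both signs over the groups for miR-148a and miR-152, and was positive in all groups for miR-148b. By Spearman's rho both signs occurred for miR-148a and miR-148b, and miR-152 was positive in all groups. None passed adjustment, and differences between groups were not tested. Pearson's r between miR-148a-3p and miR-148a-5p was -0.37 among naive, -0.56 among bPYX+GFP and 0.51 among bPYX+NT3 rats (exact permutation p = 0.511, 0.267 and 0.307, adjusted p = 0.657, 0.593 and 0.593). Between the arms of miR-148b r was 0.10, 0.79 and 0.43 (exact permutation p = 0.85, 0.15 and 0.394, adjusted p = 0.9, 0.386 and 0.645). The 0.79 turned to -0.65 without bPYX+GFP replicate 3. Between the arms of miR-152 r was -0.11, 0.40 and 0.38 (exact permutation p = 0.84, 0.329 and 0.474, adjusted p = 0.9, 0.593 and 0.656). Of these the bPYX+GFP and bPYX+NT3 values turned negative with library size only. Leaving out 1 rat could turn the sign of the naive and bPYX+NT3 values. By ranks the miR-152 arms of bPYX+GFP rats gave rho = 0.94 (exact permutation p = 0.0167, adjusted p = 0.15). The other 8 values of rho between arms ran from -0.54 to 0.37, with adjusted p from 0.764 to 0.919. Among them those of the miR-148b arms were -0.14 (naive), -0.09 (bPYX+GFP) and 0.14 (bPYX+NT3), and those of the miR-152 arms 0.14 (naive) and 0.20 (bPYX+NT3). Without the 2 farthest rats the 9 values of r ran from -0.54 to 0.92.

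**Figure D5:**
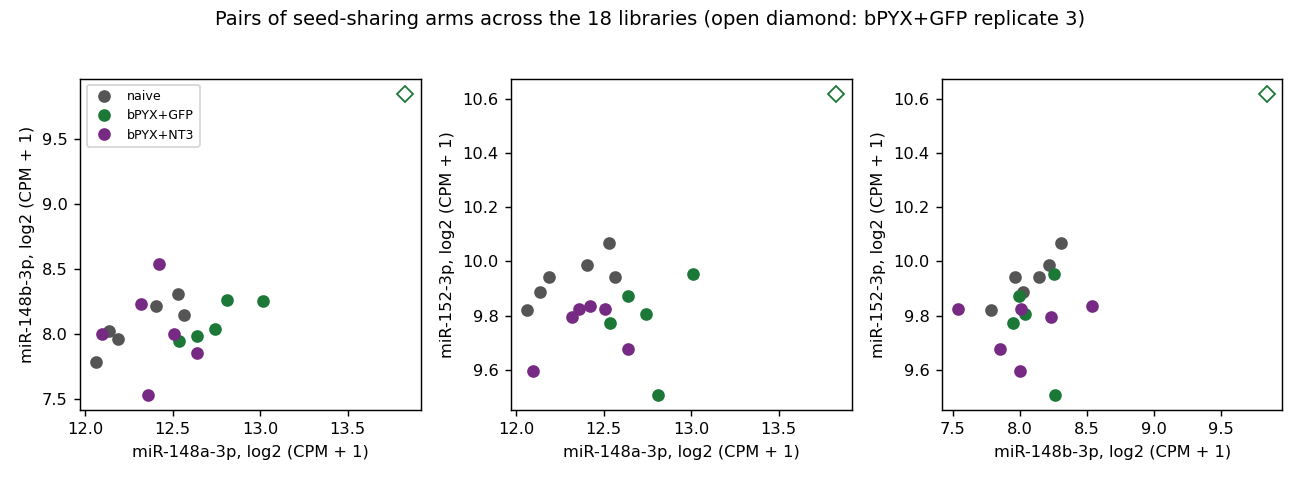
Pairs of guides on log2 (CPM + 1) axes, 1 point per library, coloured by group, with an open diamond for bPYX+GFP replicate 3. This library lies at the upper right of every panel, and between miR-148a-3p and miR-148b-3p r is 0.87 (naive), 0.98 (bPYX+GFP) and -0.07 (bPYX+NT3), of which none passed adjustment and whose difference was not tested.

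The miRNAs most like each guide over all 18 libraries were found by Spearman's rho as a description, which the differences between groups also enter and in which all points share library depth and scaling. For miR-148a-3p they were miR-379-3p (rho = 0.89), miR-455-3p (0.74), miR-30e-3p (0.74), let-7d-3p (0.68) and miR-29b-1-5p (0.63). The mean of miR-379-3p was 37.6 ± 6.11 CPM for naive, 71.9 ± 12.9 CPM for bPYX+GFP and 50.8 ± 13.4 CPM for bPYX+NT3 rats (SD, n = 6 each). It remained the most alike without bPYX+GFP replicate 3 (rho = 0.87). None of these was a family member: rho between miR-148a-3p and miR-148b-3p was 0.43, and between miR-148a-3p and miR-152-3p it was 0.13.

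miR-148b-3p was most like miR-199a-3p (rho = 0.76), miR-125a-5p (0.74) and miR-194-5p (0.74), and miR-152-3p was most like miR-361-3p (0.69), let-7i-5p (0.68) and miR-199a-5p (0.64). The 3 guides thus had no miRNA in common among those most alike. miR-199a-5p and miR-199a-3p are markers of fibroblasts, and the summed fibroblast markers (3 of 3 tested, none at 0) lay at 1627 to 2460 CPM (naive), 1387 to 1870 CPM (bPYX+GFP) and 1544 to 1851 CPM (bPYX+NT3). Their part in the level of miR-152-3p was not tested.

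Other miRNAs known to repress DNA methyltransferases were taken as the rest of the pathway. Of the 8 listed 5 were tested, and miR-29a-3p, miR-29b-3p and miR-29c-3p were listed at 0 in all libraries. None of the 5 had an adjusted p under 0.05 in any comparison by edgeR or by DESeq2. At an unadjusted p under 0.05, 1 of 5 was higher in bPYX+GFP against naive (10.7% of all tested miRNAs were) and none was lower, and with edgeR none passed in bPYX+NT3 against bPYX+GFP (8.58% of all did) or against naive (13.7% of all). With DESeq2 1 passed in bPYX+NT3 against naive (15% of all). The 1 was miR-101a-3p, with means of 1445 ± 157 CPM (naive), 1673 ± 162 CPM (bPYX+GFP) and 1614 ± 72.7 CPM (bPYX+NT3; SD, n = 6 each). The median log2 fold change of the 5 was 0.01, -0.03 and -0.01 in bPYX+GFP against naive, bPYX+NT3 against bPYX+GFP and bPYX+NT3 against naive. The rest of the list, miR-185-5p, miR-342-3p, miR-143-3p and miR-126a-3p, ranged from -0.09 to 0.09 in log2 fold change in bPYX+GFP against naive.

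Of 19 cell type markers tested, 3 had an unadjusted p under 0.05 with edgeR in bPYX+GFP against naive (21.2% of all tested miRNAs did), 1 in bPYX+NT3 against bPYX+GFP (8.58% of all) and 1 in bPYX+NT3 against naive (13.7% of all). At this threshold miR-145-5p of smooth muscle (1 of 2 tested) was lower in bPYX+GFP than in naive rats and higher in bPYX+NT3 than in bPYX+GFP rats, the opposite direction to miR-148a-3p. With DESeq2 it passed the adjusted threshold in the first of these comparisons. The summed smooth muscle markers lay at 41692 to 68821 CPM (naive), 44512 to 59405 CPM (bPYX+GFP) and 41029 to 59035 CPM (bPYX+NT3). miR-182 of sensory neurons (1 of 2 tested) was higher in both injured groups than in naive rats, and the summed sensory neuron markers lay at 23643 to 31011, 28968 to 33104 and 25920 to 32958 CPM. miR-199a-5p of fibroblasts (1 of 3) was lower in bPYX+GFP than in naive rats, and with DESeq2 it did not pass. None of the markers tested for neurons (1), skeletal muscle (2), red blood cells (3), leukocytes (5) and endothelium (1) passed in any comparison, by edgeR or by DESeq2. The part of these cell types in the family's values was not tested.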

How the data were processed

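The authors made libraries with a NEBNext small RNA kit, without stated molecular identifiers, and sequenced single-end reads. Per the submitters' notes, bcl2fastq 1.8.4, Bowtie2 and HTSeq were used on build Rnor_5.0. The deposited table holds raw counts of reads for each mature miRNA. Its 5 totals of uncounted reads (61.8 to 67.6% of a library) entered neither library sizes nor tests. The miRNA annotation release is not given in the sources used here.

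The members and marker lists were chosen with earlier results of these data known, and so were the shares and arm ratios. Samples were grouped by their labels. Within each group no library was a copy of another (smallest chi-square over its degrees of freedom 39.6 between replicates). Pairs of libraries from different groups were not checked. Each comparison was fitted on its 12 libraries with edgeR 4.0.16 in R 4.3.3 (TMM, quasi-likelihood F test), over 373 miRNAs with more than 10 counts in at least 6 of 18 libraries, with Benjamini-Hochberg adjustment. Standard errors of log2 fold changes were derived from the F statistics. CPM are counts per M after TMM scaling. Relations were tested with Python 3.11.15. No library was left out of the reported fits, although the study excluded an outlier rat from its small RNA comparisons. The sample labels do not say which library came from that rat, so it is not taken to be bPYX+GFP replicate 3.

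Named miRNAs were the 6 members, the 5 most like miR-148a-3p, the 3 most like each other guide, and the lists by counts. The lists were markers of sensory neurons, neurons, myelinating glia, skeletal muscle, red blood cells, leukocytes, endothelium, smooth muscle and fibroblasts, and repressors of DNA methyltransferases. The fit was tested on simulated data. Alternatives were other size factors, filters, DESeq2 1.42.0, the likelihood ratio test, a joint fit of 3 groups, a block for the replicate number and leaving out each library. Nothing says that libraries were prepared in batches.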

Additional observations from a re-analysis of the deposited data

Results flagged for a closer look

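Of 39 groups of 6 rats checked over 13 measures of the family, 11 held a rat far from the others of its group, where chance gives about 1 in 20 groups. In 8 of the 11 this was bPYX+GFP replicate 3, and these measures share the guides' counts. They were miR-148a-3p (14546 CPM, next 8267), miR-148b-3p (919.8 CPM, next 306), miR-152-3p (1571 CPM, next 990.5), the sum of the guides (17036 CPM, next 9562), the share of miR-148b-3p in the guides (5.40%, next 3.72%), and the ratios of 3p to 5p counts for miR-148a (127, next 62.4), miR-148b (28.1, next 15.3) and miR-152 (45.2, next 29.1). The shares of miR-148a-3p and miR-152-3p in the guides did not set this rat apart. The other 3 were miR-148b-5p in naive replicate 2 (35.4 CPM, next 29.7), miR-152-5p in bPYX+GFP replicate 6 (44.2 CPM, next 34.7) and the ratio of the miR-152 arms in naive replicate 1 (33.0, next 24.1).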

How the results depend on the processing

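Family members with an adjusted p under 0.05 in bPYX+GFP against naive were 0 in the edgeR fit as reported and 1, miR-148a-3p, with library size only (2.95% of all tested miRNAs), the DESeq2 Wald test (6.17%), the edgeR likelihood ratio test (3.22%) and all 3 groups in 1 fit (2.68%), and 0 to 1 when each library was left out (1 without bPYX+GFP replicate 3). Members at an unadjusted p under 0.05 in that comparison were 2, 3 with library size only (18.8% of all tested miRNAs), with no filter (14.9%) and with a minimum of more than 100 counts (26.7%), miR-148b-5p being added, and 1 to 3 when each library was left out (14.2 to 20.9%). In bPYX+NT3 against naive they were 2, but 1 with library size only (14.5% of all), with a minimum of more than 100 counts (18.7%) and with all 3 groups in 1 fit (15.5%), and 1 to 3 when each library was left out (8.58 to 18.2%). Over all miRNAs, bPYX+GFP against naive gave 9 calls, 23 with DESeq2 and 3 to 20 when each library was left out. bPYX+NT3 against naive gave 0, but 1 with DESeq2, the likelihood ratio test and all 3 groups in 1 fit, and 0 to 4 when each library was left out. The 360 fold changes and 126 group means computed under the alternatives moved by less than the spread between rats. Leaving out 1 of 6 rats cannot move a group mean by as much as the SD. For those alternatives the outcome was thus fixed in advance, and no stability is read from it. For the guides bPYX+GFP replicate 3 itself widened that spread, so the bound is looser still. Without this library the log2 fold change of miR-148b-3p fell from 0.50 to 0.03 in bPYX+GFP against naive. In bPYX+NT3 against bPYX+GFP it went from -0.50 to -0.05. Of the 360 fold changes, 26 took the other sign, in 5 member and comparison pairs whose reported log2 value lay between -0.02 and 0.02.

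Of 126 correlations computed under the alternatives, 14 took the other sign, in 10 of the 18 relations, and the cause was not tested. With library size only, r was 0.23 between miR-148a-3p and miR-148b-3p in bPYX+NT3 rats, and -0.017 and -0.59 between the miR-152 arms in bPYX+GFP and bPYX+NT3 rats. When each rat was left out, r between guides ran from -0.20 to 0.13 (miR-148a and miR-148b, bPYX+NT3), -0.73 to 0.92 (miR-148a and miR-152, bPYX+NT3), -0.28 to 0.99 (miR-148b and miR-152, bPYX+GFP) and -0.15 to 0.62 (the same pair, bPYX+NT3). Between the miR-148b arms it ran from -0.15 to 0.31 in naive, -0.65 to 0.91 in bPYX+GFP and -0.40 to 0.73 in bPYX+NT3 rats, and between the miR-152 arms from -0.39 to 0.24 in naive and -0.053 to 0.58 in bPYX+NT3 rats.

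Replicate numbers are shared by the groups, and the deviations of same-numbered rats from their group means had correlations of both signs. These ran from -0.24 to 0.33 in bPYX+GFP against naive, -0.15 to 0.18 in bPYX+NT3 against bPYX+GFP and -0.41 to 0.39 in bPYX+NT3 against naive. Rats of different numbers were not compared in this way, so whether the numbers pair the rats was not tested. With the replicate number as a block, 4 members in place of 2 had an unadjusted p under 0.05 in bPYX+GFP against naive, miR-148a-5p and miR-148b-5p being added, against 20.4% of all tested miRNAs, and miR-148a-3p was at 0.61 ± 0.18. In bPYX+NT3 against naive they were 3 in place of 2, with miR-148a-5p added, against 12.9% of all.

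With 6 rats per group, no single relation among 18 can pass adjustment by Spearman's rho. The passengers of miR-148b and miR-152 rest on 84 to 253 counts per library, and the guides on 725 or more.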
